A study of Homo sapiens with 9 samples.

Results

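Glycolysis breaks glucose down to pyruvate in the cytosol, and many tumour cells then reduce the pyruvate to lactate and export it even when oxygen is present. Transporters of the SLC2A family bring glucose in, hexokinases trap it, a chain of enzymes from GPI to PKM yields pyruvate, lactate dehydrogenase makes lactate, and the SLC16A transporters carry lactate across the membrane. Pyruvate that is not reduced enters mitochondria through the MPC carrier and is oxidised by the pyruvate dehydrogenase complex, which the PDK kinases switch off. The 36 genes described here cover this route from glucose uptake to pyruvate entry, together with the PFKFB enzymes that set the level of fructose 2,6-bisphosphate, KHK, which phosphorylates fructose, and TXNIP, an arrestin-like protein known to restrain glucose uptake. They were taken by name from a written list, and each of the 36 was found among the 58735 genes of the count tables. All 36 passed the filter on low counts, which left 16188 genes for testing.

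The RNA came from MDA-MB-231, a long-established breast cancer line of the triple-negative type. The libraries formed 3 groups of 3. Vehicle cells had received DMSO, erastin-R cells had survived rising concentrations of erastin, and RSL3-R cells had survived rising concentrations of RSL3. Both survivor groups are called resistant below. The labels give no change in sensitivity, so lasting resistance and drug exposure cannot be told apart. Erastin blocks the cystine importer and RSL3 blocks GPX4, and both drugs kill cells by ferroptosis, an iron-dependent death through lipid peroxidation. All groups share this 1 cell line, and the labels do not say whether the libraries of a group were separate cultures, so the p values measure only the spread between these samples, which may be technical. The 4 mesenchymal markers of the line were abundant in every library (VIM from 20507 to 26549 counts). VIM did not pass the test described below (log2 fold changes -0.03 for erastin-R and -0.13 for RSL3-R), CAV1 fell by 1.14 and 0.86, CD44 fell by 0.15 and 0.43, and AXL rose by 0.58 and 0.40. ESR1 and PGR stayed between 0 and 12 counts. Of the markers of other cell types, COL1A2, CD3E, CDH5, CD68 and VWF did not exceed 7 counts, PTPRC reached 24, and COL1A1, PDGFRB and PECAM1 lay between 20 and 222. In erastin-R cells PECAM1 fell by 2.47 on the log2 scale, and PTPRC, COL1A1, PDGFRB and the epithelial markers CDH1 and EPCAM did not pass the test. In RSL3-R cells CDH1 rose by 1.58, PTPRC by 1.67, PDGFRB by 0.69, COL1A1 by 0.39 and PECAM1 by 0.36, while EPCAM had -0.37 (adjusted p = 0.315). The part of these markers in the results below was not tested.

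Total counts ranged from 15405102 to 17273464 a library. Levels are given below as CPM (counts scaled to library size with edgeR's TMM factors) when libraries are compared and as FPKM (the deposited values, scaled to library size and exon length) when genes are compared. Erastin-R replicate 1 stood apart from the other erastin-R libraries on the third principal component, which held 6.71% of the variance over the tested genes (scores 35.7 against -14.4 and -13.0). In 7 of the 36 genes its log2 CPM lay more than 0.3 from the mean of the other erastin-R libraries, and values without it are given for genes whose call it changed and for some others whose value it moved. "Rose" and "fell" are used below only for genes with an adjusted p under 0.05 in edgeR's quasi-likelihood test, adjusted over all tested genes. "At least 2-fold" means in addition an absolute log2 fold change of 1 or more.

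In erastin-R cells 20 of the 36 genes fell against vehicle, 8 rose and 8 did not pass the test. Over all tested genes 26.8% fell and 27.1% rose in this comparison, 54.0% in all. In RSL3-R cells 24 genes fell, 5 rose and 7 did not pass, while 24.9% of all tested genes fell and 23.8% rose, 48.7% in all. Across the 36 genes the median was -0.28 (log2) for erastin-R against vehicle and -0.47 for RSL3-R against vehicle, while that of all tested genes was 0.00 and 0.01. Both comparisons use the same vehicle libraries, so their values are given side by side and not as separate evidence. At least 2-fold, 2 genes rose (SLC2A3 and TXNIP) and 3 fell (TPI1, LDHA and PFKFB4) in erastin-R cells, where 6.7% and 6.66% of all tested genes did so. In RSL3-R cells SLC16A1 and TXNIP rose at least 2-fold, and PGK1, PGAM1, LDHA, PFKFB4 and KHK fell (6.02% and 4.08% of all tested genes).

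**Figure D1:**
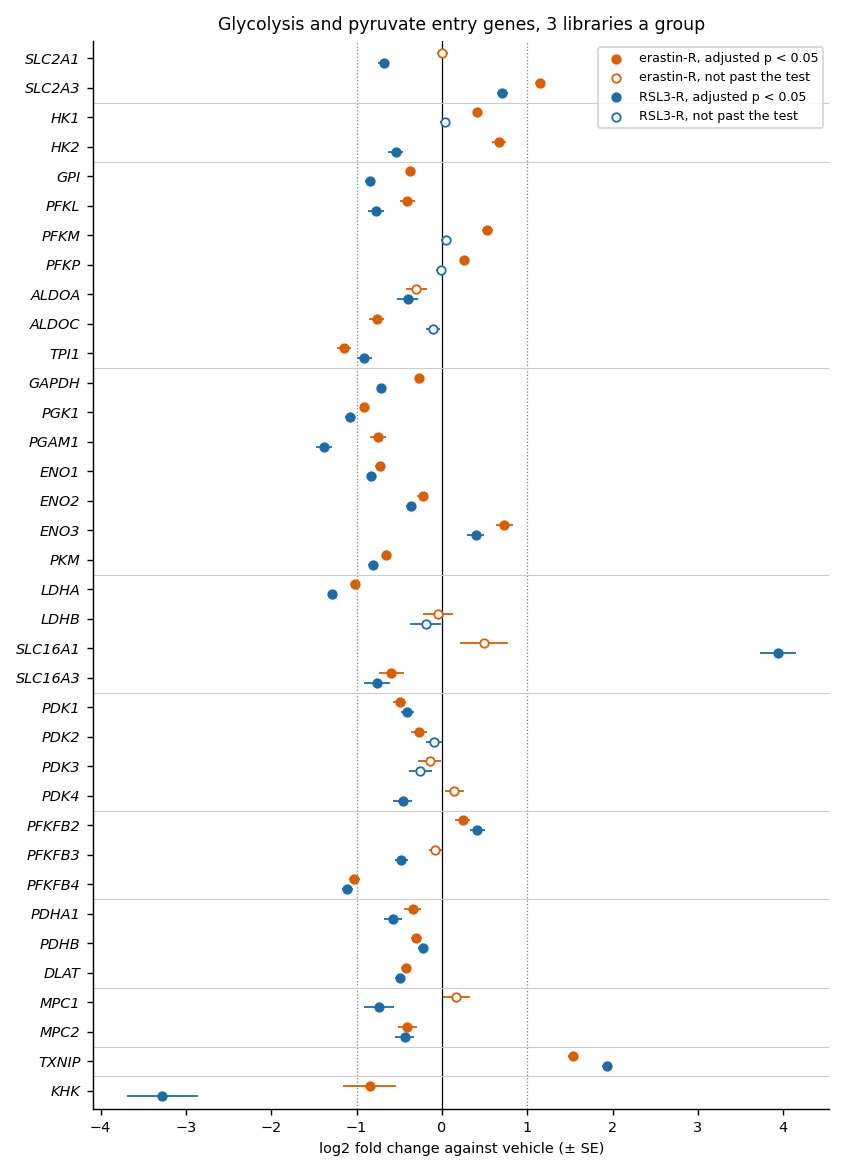
Log2 fold change against vehicle (x axis, ± SE) of the 36 genes (y axis, grouped by role) in erastin-R (orange) and RSL3-R (blue) cells, 3 libraries a group; filled points have an adjusted p under 0.05 and dotted lines mark a 2-fold change. Most points lie left of 0, with TXNIP at 1.53 and 1.93, and SLC16A1 at 3.93 and KHK at -3.28 in RSL3-R cells at the extremes.

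Promoter sequences are shown for 2 genes that fell at least 2-fold in RSL3-R cells, LDHA and PGK1, and for TXNIP, which rose, with its relative ARRDC4. They are the 250 bases before the RefSeq start on GRCh38.p14, printed 5′ to 3′ on the strand of the gene. Capitals mark 3 motifs searched on both strands: CACGTG, the E-box bound by MYC and by the glucose sensors MLXIP and MLXIPL with MLX, and ACGTG and GCGTG, the cores of the hypoxia response element bound by HIF-1. Each CACGTG also contains ACGTG on both strands. The windows lie at chr11:18394313-18394562 (+) for LDHA, chrX:78103998-78104247 (+) for PGK1, chr1:145996580-145996829 (-) for TXNIP and chr15:97960453-97960702 (+) for ARRDC4. The PGK1 window lies inside the longer gene that GENCODE annotates.
LDHA: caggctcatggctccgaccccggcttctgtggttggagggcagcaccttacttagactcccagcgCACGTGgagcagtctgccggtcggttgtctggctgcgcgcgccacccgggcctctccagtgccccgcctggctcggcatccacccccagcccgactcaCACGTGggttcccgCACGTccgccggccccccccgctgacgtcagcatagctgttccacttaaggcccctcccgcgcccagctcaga
PGK1: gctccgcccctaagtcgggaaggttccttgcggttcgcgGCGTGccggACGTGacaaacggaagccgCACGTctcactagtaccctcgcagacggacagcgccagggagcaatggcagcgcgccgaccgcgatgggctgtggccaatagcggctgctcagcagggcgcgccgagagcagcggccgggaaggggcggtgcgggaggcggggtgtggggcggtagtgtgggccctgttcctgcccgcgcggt
TXNIP: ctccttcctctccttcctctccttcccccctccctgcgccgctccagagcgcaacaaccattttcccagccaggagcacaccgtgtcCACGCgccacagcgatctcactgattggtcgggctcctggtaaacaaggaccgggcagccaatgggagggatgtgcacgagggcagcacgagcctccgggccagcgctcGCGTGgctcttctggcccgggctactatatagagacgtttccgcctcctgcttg
ARRDC4: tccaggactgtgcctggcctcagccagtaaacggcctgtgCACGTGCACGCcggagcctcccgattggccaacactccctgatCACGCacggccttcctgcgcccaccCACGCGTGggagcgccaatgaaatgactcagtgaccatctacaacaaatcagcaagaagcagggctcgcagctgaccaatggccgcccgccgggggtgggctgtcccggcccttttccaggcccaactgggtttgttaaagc

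LDHA held CACGTG at 185 and 87 bases before its start, and PGK1 held ACGTG at 202 and 183 bases. TXNIP held GCGTG at 163 and 54 bases and no exact match of the other motifs in this window. Imperfect E-boxes were not searched. The TXNIP window as printed holds the stretch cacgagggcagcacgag, with CACGAG, an imperfect form of CACGTG, at each end. A site for the glucose sensors may thus be present there, which was not tested. ARRDC4 held CACGTG at 210 bases. A RefSeq promoter was found for 32 of the 36 genes, not for SLC2A3, SLC16A1, PFKFB2 or KHK. Of these 32, 4 held CACGTG, 11 held ACGTG and 14 held GCGTG. Over all 35116 promoters of the same length the shares were 6.34%, 18.5% and 32.2%. Among the 17 that fell in each resistant group 3, 7 and 7 held these motifs, and among the other 15 it was 1, 4 and 7. PGAM1 and TPI1, which also fell, held none of them, and PFKFB4 held GCGTG alone. These are matches of letters, and no binding was measured.

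Of the glucose transporter genes, SLC2A3 rose in each resistant group and SLC2A1 fell in RSL3-R cells. SLC2A3 (GLUT3, ENSG00000059804, chr12:7919230-7936275), a high-affinity glucose transporter, had 67.2, 65.5 and 65.8 CPM in the vehicle libraries, 140, 149 and 152 in erastin-R and 112, 105 and 108 in RSL3-R. The 3 groups did not overlap, erastin-R being highest and vehicle lowest. The log2 fold change of SLC2A3 was 1.15 in erastin-R cells (SE 0.06, adjusted p = 4.86e-09) and 0.71 in RSL3-R cells (SE 0.06, adjusted p = 3.85e-07). SLC2A14, its close copy in sequence, from which some reads may not be told apart, rose by 1.91 on the log2 scale in erastin-R cells (adjusted p = 0.000957) and had 0.73 in RSL3-R cells (adjusted p = 0.187).

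SLC2A1 (GLUT1), the main glucose transporter of most cultured cells, measured 462 ± 7.99 CPM (SD, n = 3) in vehicle and 463 ± 39.4 in erastin-R cells, a log2 fold change of 0.00 with a 95% interval from -0.12 to 0.13. It fell in RSL3-R cells to 288 ± 8.5 CPM, a log2 fold change of -0.68 (SE 0.06, adjusted p = 1.2e-06). SLC2A1 remained the more abundant transporter per length. SLC2A3 made up 9.91% ± 0.204 (SD, n = 3) of the summed FPKM of both genes in vehicle, 19.6% ± 0.762 in erastin-R and 22.4% ± 1.03 in RSL3-R libraries. With 3 libraries against 3, the exact two-sided permutation test of such a share cannot go below p = 0.1.

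TXNIP (ENSG00000265972, chr1:145992435-145996600) rose the most of all 36 genes in erastin-R cells. It had 306, 301 and 302 CPM in vehicle, 910, 855 and 866 in erastin-R and 1158, 1160 and 1149 in RSL3-R libraries. No library of a group overlapped another group, and vehicle was lowest. TXNIP was 2.89-fold higher in erastin-R cells (log2 fold change 1.53, SE 0.05, adjusted p = 2.58e-10) and 3.81-fold higher in RSL3-R cells (log2 fold change 1.93, SE 0.05, adjusted p = 1.78e-11). It was also higher in RSL3-R than in erastin-R cells, by 0.40 on the log2 scale (SE 0.05, adjusted p = 2.18e-05). Per length it stood at 82.9 FPKM in vehicle and 317 FPKM in RSL3-R cells, above LDHA there (135 FPKM).

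ARRDC4, the arrestin relative of TXNIP that the same glucose-sensing factors induce, rose by 1.01 on the log2 scale in erastin-R cells (adjusted p = 0.000633) and by 1.95 in RSL3-R cells (adjusted p = 1.44e-06). Of 6 partners and sensors of TXNIP on the list, 4 rose and 1 fell in erastin-R cells, and 2 rose and 2 fell in RSL3-R cells. Over all tested genes 27.1% rose and 26.8% fell in erastin-R cells, and 23.8% and 24.9% in RSL3-R cells. The medians of the 6 genes were 0.22 and 0.03 (log2). MLXIPL (ChREBP), a glucose-responsive transcription factor, fell by 0.64 on the log2 scale in erastin-R cells and rose by 0.78 in RSL3-R cells. Between the resistant groups it was higher in RSL3-R by 1.42 (SE 0.10, adjusted p = 1.21e-07). MLXIP (MondoA) had log2 fold changes of 0.23 (adjusted p = 0.0208) and -0.06 (adjusted p = 0.539), and their shared partner MLX had 0.30 (adjusted p = 0.00116) and 0.11 (adjusted p = 0.147). TXN, the thioredoxin that TXNIP binds, rose by 0.21 in erastin-R cells and fell by 0.47 in RSL3-R cells. Mitochondrial TXN2 had 0.08 (adjusted p = 0.516) in erastin-R cells and fell by 0.39 in RSL3-R cells.

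HK2 RNA moved in opposite directions in the resistant groups. HK2 (ENSG00000159399, chr2:74833981-74893359), the inducible hexokinase of many tumours, had 116, 111 and 116 CPM in vehicle, 153, 200 and 190 in erastin-R and 76.3, 79.9 and 78.4 in RSL3-R libraries. All erastin-R libraries lay above vehicle and all RSL3-R libraries below it. HK2 rose by 0.67 in erastin-R cells (SE 0.08, adjusted p = 1.41e-05) and fell by 0.54 in RSL3-R cells (SE 0.08, adjusted p = 0.00012). The direct comparison put it 2.31-fold lower in RSL3-R than in erastin-R cells (log2 fold change -1.21, SE 0.08, adjusted p = 1.11e-07), and -1.32 without erastin-R replicate 1. HK1, the constitutive hexokinase, rose in erastin-R cells (log2 fold change 0.42, adjusted p = 2.29e-05) and had 0.03 in RSL3-R cells (adjusted p = 0.66). HK2 made up 45.3% ± 1.16 of the summed hexokinase FPKM in vehicle, 49.5% ± 4.29 in erastin-R and 35.7% ± 0.331 in RSL3-R libraries. Without erastin-R replicate 1 the difference between erastin-R and vehicle was 6.6 percentage points in place of 4.21.

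**Figure D2:**
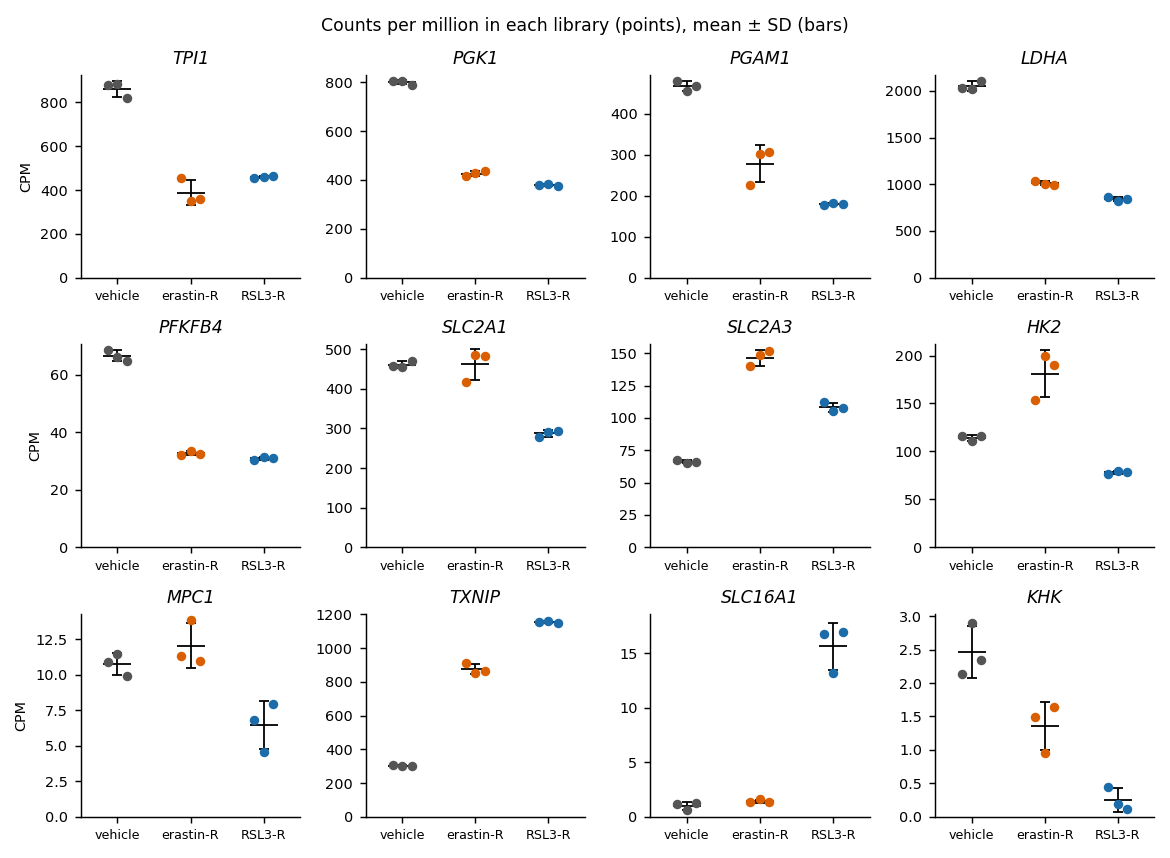
CPM (y axis, from 0) of 12 genes in each library (points) of vehicle, erastin-R and RSL3-R cells, with mean ± SD (bars, n = 3). TPI1, PGK1, PGAM1, LDHA and PFKFB4 sit lower in both resistant groups, TXNIP and SLC2A3 higher, and HK2 lies above vehicle in erastin-R and below it in RSL3-R.

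In the upper chain 4 of 7 genes fell in each resistant group, where 26.8% (erastin-R) and 24.9% (RSL3-R) of all tested genes fell. GPI, which converts glucose 6-phosphate to fructose 6-phosphate, fell by 0.37 on the log2 scale in erastin-R and by 0.85 in RSL3-R libraries. The phosphofructokinases, which catalyse the committed step, split by isozyme. PFKL had 192, 189 and 175 CPM in vehicle, 115, 151 and 153 in erastin-R and 105, 111 and 110 in RSL3-R libraries. Vehicle lay above all 6 resistant libraries. PFKL fell by 0.40 (SE 0.09, adjusted p = 0.00199) in erastin-R cells and by 0.77 (SE 0.09, adjusted p = 1.2e-05) in RSL3-R cells, and by 0.28 in erastin-R cells without replicate 1. PFKM and PFKP rose in erastin-R cells (log2 fold changes 0.53 and 0.26) and had 0.05 (adjusted p = 0.563) and -0.01 (adjusted p = 0.844) in RSL3-R cells. PFKP, the most abundant of the family per length, held 67.5% ± 0.0215 of its FPKM in vehicle, 70.8% ± 1.73 in erastin-R and 72.9% ± 0.25 in RSL3-R libraries.

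TPI1 (ENSG00000111669, chr12:6867119-6870948), which interconverts the triose phosphates, fell in both. It had 879, 886 and 818 CPM in vehicle, 454, 349 and 361 in erastin-R and 454, 458 and 464 in RSL3-R libraries. The resistant libraries all lay far below vehicle. TPI1 fell by 1.15 in erastin-R cells (SE 0.08, adjusted p = 9.85e-08), or by 1.28 without replicate 1, and by 0.91 in RSL3-R cells (SE 0.08, adjusted p = 9.68e-07). The aldolases, which split fructose 1,6-bisphosphate, were less clear. ALDOC had 45.5, 50.4 and 47.9 CPM in vehicle, 29.3, 27.1 and 28.1 in erastin-R and 41.5, 50.1 and 42.5 in RSL3-R libraries. It was low in erastin-R cells, with a log2 fold change of -0.77 (SE 0.09, adjusted p = 5.51e-06), and overlapped vehicle in RSL3-R cells (-0.10, SE 0.08, adjusted p = 0.347). ALDOA is uncertain in these files, because 42.3% of its exon length is shared with the overlapping gene AC093512.2 on the same strand. It was listed at 165 to 243 counts, with log2 fold changes of -0.30 (adjusted p = 0.0554) and -0.40 (adjusted p = 0.0168). The erastin-R value passed the test without erastin-R replicate 1 (-0.41, adjusted p = 0.00641), and the RSL3-R value did not pass the test without vehicle replicate 2, RSL3-R replicate 1 or RSL3-R replicate 3 (highest adjusted p = 0.124).

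In the lower chain, from GAPDH to PKM, 6 of 7 genes fell in each resistant group, and ENO3 rose. Over all tested genes 26.8% fell and 27.1% rose in erastin-R cells, and 24.9% and 23.8% in RSL3-R cells. The median over these 7 was -0.65 (log2) for erastin-R and -0.81 for RSL3-R. PGK1 (ENSG00000102144, chrX:77910739-78129296), the first ATP-yielding enzyme of the chain, had 806, 805 and 789 CPM in vehicle, 415, 428 and 435 in erastin-R and 378, 381 and 375 in RSL3-R libraries. The groups did not overlap, with RSL3-R lowest. PGK1 fell by 0.91 in erastin-R (SE 0.05, adjusted p = 7.48e-09) and by 1.08 in RSL3-R cells (SE 0.05, adjusted p = 1.11e-09).

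PGAM1 (ENSG00000171314, chr10:97426160-97433441), the phosphoglycerate mutase, had 480, 456 and 468 CPM in vehicle, 227, 301 and 307 in erastin-R and 177, 182 and 180 in RSL3-R libraries. Every resistant library was below vehicle, and RSL3-R was below erastin-R. PGAM1 fell by 0.75 in erastin-R cells (SE 0.09, adjusted p = 1.01e-05), or by 0.62 without replicate 1, and by 1.38 in RSL3-R cells (SE 0.09, adjusted p = 3.79e-08). ENO1 (ENSG00000074800, chr1:8861000-8879250), the main enolase, had 3051, 3078 and 3014 CPM in vehicle, 1857, 1789 and 1869 in erastin-R and 1668, 1734 and 1751 in RSL3-R libraries. Both resistant groups were far below vehicle and close to each other. ENO1 fell by 0.73 (SE 0.05, adjusted p = 5.05e-08) and by 0.83 (SE 0.05, adjusted p = 1.38e-08), and the resistant groups differed by -0.10 (95% interval -0.19 to 0.00, adjusted p = 0.115), a difference that passed without erastin-R replicate 1 (-0.09, adjusted p = 0.0322).

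GAPDH, often used as a reference gene, fell by 0.27 on the log2 scale in erastin-R (SE 0.05, adjusted p = 0.00049) and by 0.71 in RSL3-R cells (SE 0.05, adjusted p = 8.06e-08). After quantile normalization its erastin-R value did not pass the test (adjusted p = 0.166). PKM, which makes pyruvate, fell by 0.65 and 0.81, and ENO2 by 0.23 and 0.37. ENO3, the muscle enolase, rose by 0.73 (adjusted p = 3.41e-05) and 0.39 (adjusted p = 0.00535) from a low level of 4.74 FPKM in vehicle.

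Per length, GAPDH measured 978 FPKM in vehicle, ENO1 572, LDHA 328, TPI1 316, PKM 265, PGAM1 181 and PGK1 144, and these 7 were the genes listed above 100 FPKM. The levels of ALDOA (3.72 FPKM) and LDHB (8.47 FPKM) may be understated, since each shares exons with another gene, so their place in this order is not known and the sums below hold them as listed. The summed FPKM of the 18 cytosolic enzymes from hexokinase to lactate dehydrogenase was 3068 ± 13.6 (SD, n = 3) in vehicle, 2100 ± 34.5 in erastin-R and 1752 ± 25.4 in RSL3-R libraries. Without GAPDH it was 2089, 1291 and 1153. The 36 genes took 1.62% of all counts in vehicle, 1.22% in erastin-R and 1.05% in RSL3-R libraries. In bulk RNA, fewer cells that express a gene and less RNA of it in each cell cannot be told apart.

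**Figure D3:**
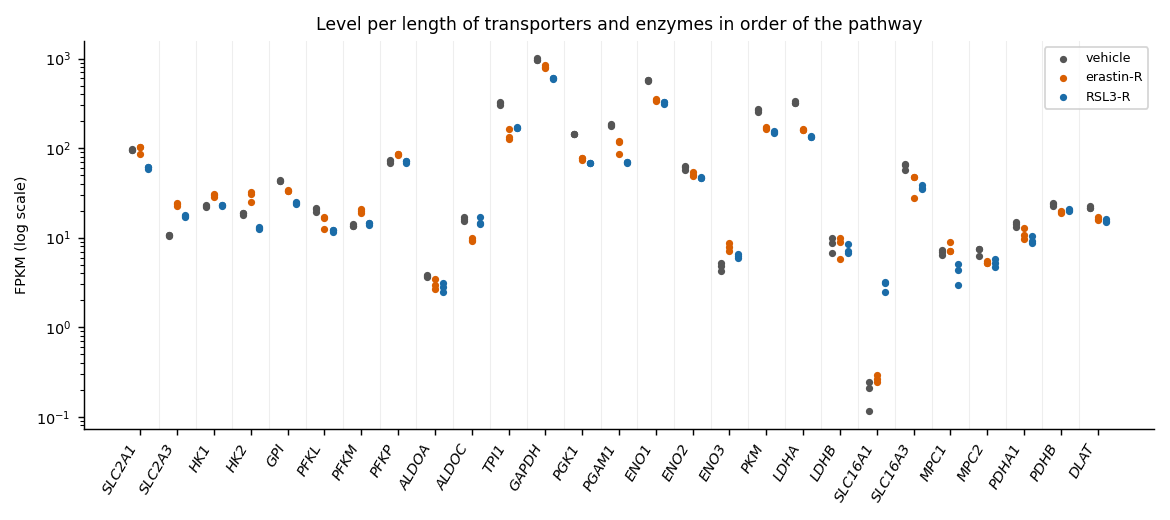
FPKM in each library (points, log scale) for transporters and enzymes in the order of the pathway, with vehicle in grey, erastin-R in orange and RSL3-R in blue. TPI1, GAPDH, PGK1, PGAM1, ENO1, PKM and LDHA hold the highest levels, up to 978 FPKM for GAPDH in vehicle, and SLC16A1 the lowest, with RSL3-R libraries well above the others.

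Of the lactate dehydrogenase and lactate transporter genes, LDHA and SLC16A3 fell in each resistant group and SLC16A1 rose in RSL3-R cells. LDHA (ENSG00000134333, chr11:18394388-18408425), the subunit that favours lactate, had 2028, 2018 and 2111 CPM in vehicle, 1031, 1006 and 991 in erastin-R and 863, 823 and 839 in RSL3-R libraries. The groups were fully separate, with RSL3-R lowest. LDHA was 2.03-fold lower in erastin-R (log2 fold change -1.02, SE 0.05, adjusted p = 3.31e-09, and -0.79 after quantile normalization) and 2.44-fold lower in RSL3-R cells (log2 fold change -1.29, SE 0.05, adjusted p = 2.73e-10). LDHB had log2 fold changes of -0.04 (95% interval -0.39 to 0.30) and -0.19 (-0.54 to 0.16) and did not pass the test. Without erastin-R replicate 1 the erastin-R value was 0.15 (adjusted p = 0.271), and LDHB was lower in RSL3-R than in erastin-R cells (-0.35, adjusted p = 0.0142, against 0.514 with it). Its share of the summed LDHA and LDHB FPKM was 2.53% ± 0.519 in vehicle, 4.87% ± 1.29 in erastin-R and 5.23% ± 0.478 in RSL3-R libraries. LDHB is uncertain as well, since 33.4% of its exon length is shared with AC010197.2 on the same strand.

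SLC16A1 (MCT1, ENSG00000155380, chr1:112911847-112957013), which carries lactate and pyruvate in either direction, was low outside RSL3-R cells. It had 19, 10 and 21 counts in vehicle, 22, 25 and 23 in erastin-R and 261, 212 and 290 in RSL3-R libraries. The RSL3-R libraries lay far above all others. In CPM these were 1.01 ± 0.353 (SD, n = 3), 1.43 ± 0.143 and 15.6 ± 2.14. SLC16A1 was 15.3-fold higher in RSL3-R cells than in vehicle (log2 fold change 3.93, SE 0.21, adjusted p = 4.83e-09) and 10.9-fold higher than in erastin-R cells (log2 fold change 3.44, SE 0.20, adjusted p = 2.12e-08). In erastin-R cells its log2 fold change was 0.49 (SE 0.28, adjusted p = 0.158).

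SLC16A3 (MCT4), the lactate exporter of glycolytic cells, fell by 0.59 in erastin-R (SE 0.15, adjusted p = 0.00436) and by 0.76 in RSL3-R cells (SE 0.15, adjusted p = 0.000855). Erastin-R replicate 1 had 254 CPM against 436 and 437 in the other erastin-R libraries, and without it the decrease in erastin-R cells was -0.38 and the difference between the resistant groups passed the test (-0.39, adjusted p = 3.4e-07, against 0.369 with it). SLC16A3 still held most of the summed FPKM of both transporters: 99.7% ± 0.123 in vehicle, 99.3% ± 0.17 in erastin-R and 92.6% ± 1.29 in RSL3-R libraries.

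**Figure D4:**
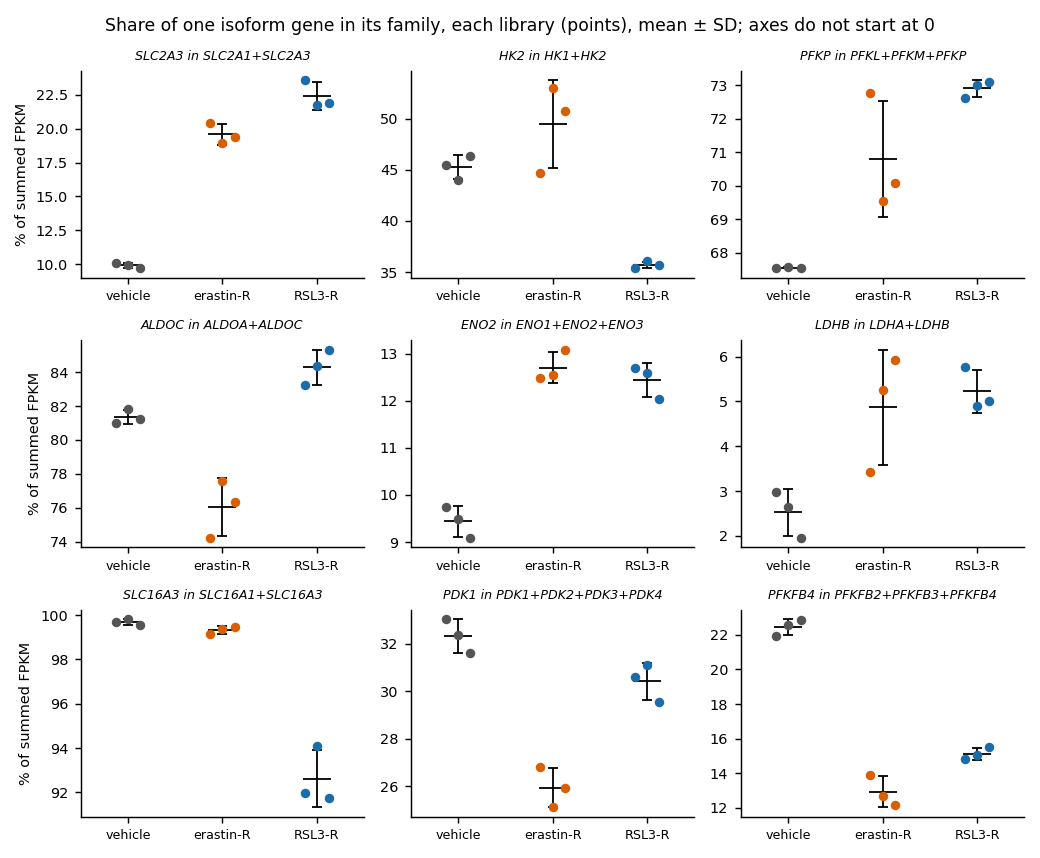
Share of 1 gene in the summed FPKM of its family (y axis, percent, axes not from 0) in each library (points) with mean ± SD (bars, n = 3). The SLC2A3 share went from 9.91% in vehicle to 19.6% in erastin-R and 22.4% in RSL3-R libraries, the HK2 share was lowest in RSL3-R cells (35.7%), and the PFKFB4 share was highest in vehicle (22.4%).

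Of the PFKFB enzymes, which make and remove the phosphofructokinase activator fructose 2,6-bisphosphate, PFKFB4 fell at least 2-fold in each resistant group. PFKFB4 (ENSG00000114268, chr3:48517684-48562015) had 68.7, 66.3 and 64.8 CPM in vehicle, 32.1, 33.4 and 32.6 in erastin-R and 30.2, 31.5 and 31.0 in RSL3-R libraries. Vehicle was separate from all resistant libraries, which were close together. PFKFB4 fell by 1.03 in erastin-R cells (SE 0.07, adjusted p = 3.2e-08) and by 1.11 in RSL3-R cells (SE 0.07, adjusted p = 1.41e-08). The resistant groups differed by -0.08 (95% interval -0.22 to 0.05). PFKFB3, the isozyme with high kinase activity, had -0.08 in erastin-R (adjusted p = 0.394) and fell by 0.47 in RSL3-R cells. PFKFB2 rose by 0.24 (adjusted p = 0.0339) and 0.42 (adjusted p = 0.00151). Its erastin-R value did not pass the test when vehicle replicate 1, vehicle replicate 2 or erastin-R replicate 2 was left out (highest adjusted p = 0.146). Nor did it pass with no filter on low counts (adjusted p = 0.115) or with only the 2 groups compared (0.0502).

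At the entry of pyruvate into mitochondria every change was under 2-fold. The pyruvate dehydrogenase subunits PDHA1, PDHB and DLAT fell in each resistant group, by 0.34, 0.30 and 0.42 in erastin-R and by 0.58, 0.22 and 0.49 in RSL3-R cells. PDHA1 in erastin-R cells fell by 0.46 without erastin-R replicate 1 and did not pass without erastin-R replicate 2 (adjusted p = 0.0540), nor PDHB in RSL3-R cells without RSL3-R replicate 1 or 3 (highest adjusted p = 0.0791). MPC2, a subunit of the pyruvate carrier, fell by 0.41 and 0.43. Its partner MPC1 had 0.16 in erastin-R (adjusted p = 0.428) and fell by 0.73 in RSL3-R cells (SE 0.17, adjusted p = 0.00319).

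The kinases that inhibit the complex did not move together. PDK1 fell by 0.50 in erastin-R and 0.40 in RSL3-R libraries. PDK4 had 16.4, 17.6 and 20.3 CPM in vehicle, 22.4, 19.6 and 18.1 in erastin-R and 13.1, 12.4 and 13.9 in RSL3-R libraries. Erastin-R overlapped vehicle and RSL3-R lay below both. Against vehicle PDK4 had 0.15 in erastin-R cells (SE 0.11, adjusted p = 0.286) and fell by 0.46 in RSL3-R cells (SE 0.12, adjusted p = 0.00462). PDK2 fell by 0.27 in erastin-R cells (adjusted p = 0.027), a call lost without vehicle replicate 1 or 2 or erastin-R replicate 2 or 3 (highest adjusted p = 0.108), and had -0.09 in RSL3-R cells (adjusted p = 0.437). The erastin-R call of PDK2 was also lost with no filter on low counts (adjusted p = 0.0903) and with only the 2 groups compared (0.0520). PDK3 did not pass the test in either (-0.14 and -0.25).

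KHK (ENSG00000138030, chr2:27086747-27100772) starts the breakdown of fructose. It had 36, 47 and 38 counts in vehicle, 25, 15 and 27 in erastin-R and 7, 3 and 2 in RSL3-R libraries. RSL3-R was close to the limit of detection, taken as 3 counts, and the groups did not overlap. KHK was 9.7-fold lower in RSL3-R cells than in vehicle (95% interval of the log2 fold change -4.09 to -2.46, adjusted p = 1.92e-05) and 5.39-fold lower than in erastin-R cells (-3.31 to -1.55, adjusted p = 0.000499). In erastin-R cells the log2 fold change was -0.85 (adjusted p = 0.0345), a call lost without vehicle replicate 2 (adjusted p = 0.133), vehicle replicate 3 (0.0658) or erastin-R replicate 2 (0.125). This call was also lost after quantile normalization with limma (adjusted p = 0.0610). Of 5 other fructose and polyol genes, 2 rose and none fell in erastin-R cells, and 1 rose and 1 fell in RSL3-R cells. Over all tested genes 27.1% rose and 26.8% fell in erastin-R cells, and 23.8% and 24.9% in RSL3-R cells. The medians of the 5 genes were 0.21 and 0.12 (log2). AKR1B1, the aldose reductase that starts the polyol route from glucose to fructose, rose by 1.01 in erastin-R cells (adjusted p = 1.05e-06).

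Compared directly, 18 of the 36 genes were lower in RSL3-R than in erastin-R cells, 4 were higher and 14 did not pass the test, against 26.9% lower and 22.3% higher over all tested genes (49.2% in all). Only SLC16A1 (higher), HK2 and KHK (lower) differed at least 2-fold, where 6.86% and 3.48% of all tested genes did so. Both glucose transporters and both hexokinases were lower in RSL3-R cells, by 0.69 for SLC2A1, 0.44 for SLC2A3, 0.38 for HK1 and 1.21 for HK2. ALDOC, TPI1, SLC16A1 and TXNIP were higher. The TPI1 call was lost without erastin-R replicate 2, erastin-R replicate 3 or RSL3-R replicate 2 (highest adjusted p = 0.125). The calls of PGK1, PKM and ENO3, which were lower, were also lost under some alternative settings. None of the pyruvate dehydrogenase subunits passed the test (log2 fold changes -0.23 to 0.08). Leaving out erastin-R replicate 1 raised the number of genes past the test from 22 to 27, adding ENO1, LDHB, SLC16A3, ENO2 (-0.15, adjusted p = 0.0123, against 0.0657 with it) and PDK1 (0.17, adjusted p = 0.0386, against 0.348 with it). Over all tested genes the number past the test rose as well, from 7969 of 16188 to 9492 of 16619.

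Among other genes of glycolysis, gluconeogenesis and pyruvate use, increases and decreases were mixed. Of 44 on the list 27 were tested, of which 11 rose and 4 fell in erastin-R cells, where 27.1% and 26.8% of all tested genes did so. In RSL3-R cells 5 of the 27 rose (18.5%) and 7 fell (25.9%), near the 23.8% and 24.9% of all tested genes. The median of the 27 was 0.09 (log2) for erastin-R and -0.11 for RSL3-R. PCK2, the mitochondrial enzyme that makes phosphoenolpyruvate, rose by 1.35 in erastin-R cells (adjusted p = 9.5e-07) and by 2.25 in RSL3-R cells (adjusted p = 6.82e-09). HKDC1, a hexokinase relative, rose by 1.49 (adjusted p = 0.0177) and 1.26 (adjusted p = 0.0478). SLC2A6, a transporter of lysosomal membranes, fell by 1.65 in erastin-R and by 0.61 in RSL3-R libraries, and SLC16A4 fell by 1.27 in RSL3-R cells (adjusted p = 0.00578). In the direct comparison, 4 genes at least 2-fold apart were SLC2A6, higher in RSL3-R than in erastin-R cells by 1.04 (adjusted p = 0.000443), and SLC2A8, SLC2A14 and LDHD, lower by 1.19, 1.18 and 1.09. Genes of the pyruvate dehydrogenase complex and its activation, chosen here after their values were seen, moved both ways. DLD, the shared E3 subunit, fell by 0.54 and 0.65, while the phosphatase genes PDP1 (0.36 and 0.64) and PDP2 (0.58 and 0.39) rose.

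Most listed targets of the hypoxia factor HIF-1 outside glycolysis fell. Of 15 such genes 11 fell and 1 rose in erastin-R cells, where 26.8% of all tested genes fell and 27.1% rose. In RSL3-R cells 12 fell and 2 rose, where 24.9% and 23.8% of all tested genes did so. Their median log2 fold change was -0.36 for erastin-R and -0.57 for RSL3-R. CA9, a carbonic anhydrase, fell by 2.37 on the log2 scale in erastin-R (SE 0.26, adjusted p = 4.06e-06) and by 1.27 in RSL3-R cells (SE 0.23, adjusted p = 0.000431). EGLN3, a prolyl hydroxylase, fell by 1.76 and 1.29, and ANGPTL4, a lipase inhibitor, by 1.38 and 1.07. BNIP3, a mitophagy receptor, fell by 0.71 in erastin-R cells and just reached 2-fold in RSL3-R cells. Of 5 regulators of these genes none fell, 5 rose in erastin-R cells and 4 rose in RSL3-R cells, with medians of 0.86 and 0.60 (log2). The list holds regulators whatever their direction of action, so the count and medians give no net direction. HIF1A rose by 1.26 in erastin-R (adjusted p = 1.91e-08) and 0.51 in RSL3-R cells (adjusted p = 8.09e-05), EPAS1 by 0.86 and 0.88, and VHL by 0.34 and 0.60. ARNT had 0.57 (adjusted p = 2.03e-05) and 0.13 (adjusted p = 0.159), and MYC rose by 1.56 and 0.64. Protein levels, oxygen and metabolite flux were not measured in these libraries.

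**Figure D5:**
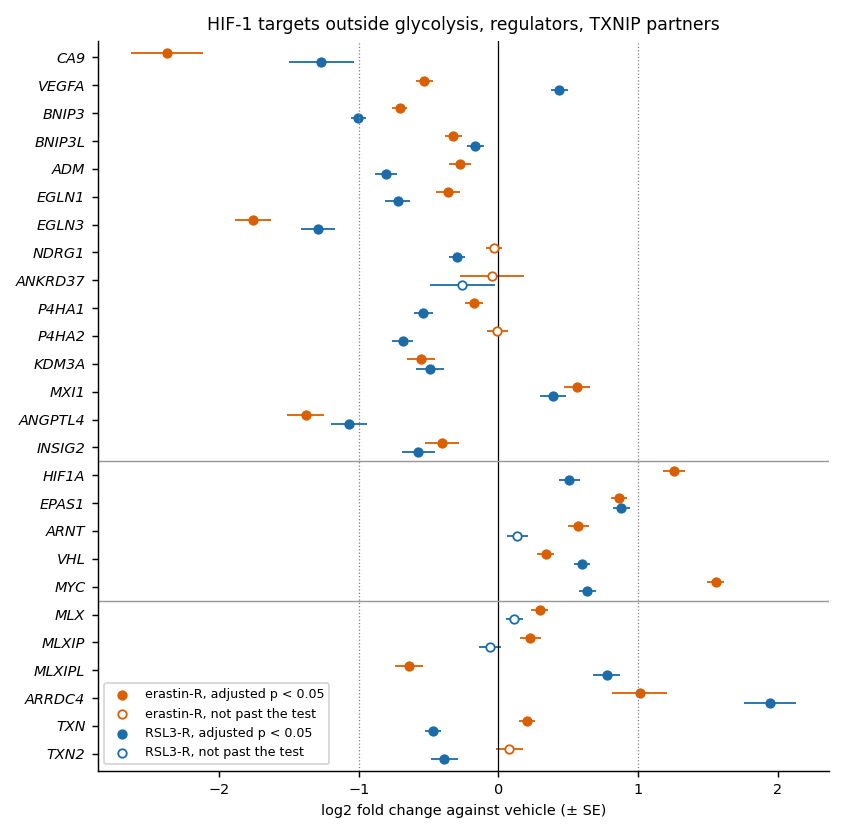
Log2 fold change against vehicle (x axis, ± SE) of HIF-1 targets outside glycolysis (top), regulators (middle) and TXNIP partners (bottom) in erastin-R (orange) and RSL3-R (blue) cells; filled points have an adjusted p under 0.05. CA9 lies at -2.37 and -1.27, HIF1A at 1.26 and 0.51, and ARRDC4 at 1.01 and 1.95.

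Reads counted for pseudogenes were few beside those of the genes. Only uniquely mapped reads were counted, so reads that match a gene and its pseudogene equally are not seen here. The files hold 106 pseudogene entries for 13 of the 36 genes, and their counts reached at most 1.35% of the sum of gene and pseudogenes (PGAM1). Adding them changed none of the counts of genes past the test given above. Some exons are covered by a gene on the opposite strand, and whether the counting used strand is not given in the sources used here. The covered share of exon length was 23.8% for KHK, 38.6% for PDK2, 21.3% for PDHA1 and 22.5% for MPC2. The covering genes had 0 to 2, 9 to 15, 125 to 202 and 647 to 1425 counts in this order. For ENO3, with 298 to 618 counts, 2.59% was covered by PFN1, which had 9494 to 15725 counts.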

How the data were processed

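RNA was selected with oligo(dT) and sequenced from 9 libraries of MDA-MB-231 cells. The deposited values were unnormalized gene counts that the authors made with HISAT2 2.0.5 and featureCounts 1.5.0-p3 per the submitters' processing notes, from uniquely mapped exonic reads. A deposited FPKM column, derived by the authors from the same counts (called RPKM in the methods), was used here for levels across genes and shares within families. All 58735 gene identifiers matched GENCODE 29 (GRCh38) in start, end and exon length. The build is otherwise not given in the sources used here.

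Counts were tested in R 4.3.3 with edgeR 4.0.16 (TMM, filterByExpr, quasi-likelihood test, 1 model of all 9 libraries without covariate), with p values adjusted by Benjamini-Hochberg over 16188 genes. The common dispersion was 0.00732 (coefficient of variation 8.56%). Shares were compared by exact permutation tests, 27 in all. The test was tried on simulated counts. The authors' test (Cufflinks) was not rerun. Each gene has a value in the text. Values in every library are given for genes past both thresholds in any comparison and for the gene that changed most in each family. Genes of the other lists are named where past both thresholds, and all regulators and TXNIP partners are named. Members, lists and this rule were chosen with earlier results of these data known. Replicate numbers did not pair the libraries (correlations of same-numbered deviations from -0.090 to 0.052). Alternatives were DESeq2 1.42.0, other scalings (RLE, total count, quantile normalization with limma 3.58.1), no filter, only the groups compared, a replicate block, each library left out, added pseudogene counts and shares of counts.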

Additional observations from a re-analysis of the deposited data

Results flagged for a closer look

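For 3 genes erastin-R and RSL3-R cells differed by a direct test and by at least 2-fold. Of the 36 genes, 1 was higher and 2 were lower in RSL3-R cells by these thresholds. Over all tested genes 6.86% were higher and 3.48% lower, so differences of this size were not particular to these genes. The log2 difference, RSL3-R minus erastin-R, was -1.21 for HK2, 3.44 for SLC16A1 and -2.43 for KHK. HK2 rose in one group and fell in the other, while SLC16A1 rose past the test in RSL3-R cells alone and KHK fell in each group, further in RSL3-R cells.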

How the results depend on the processing

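The numbers of genes past the test stayed within 1.5 times the values given under each alternative, with 1 exception: after quantile normalization 7 genes in place of 4 were higher in RSL3-R than in erastin-R cells. With each library left out in turn, 24 to 29 genes passed for erastin-R against vehicle, 27 to 30 for RSL3-R against vehicle and 19 to 27 for RSL3-R against erastin-R. Of the 28, 29 and 22 genes past the test, 23, 27 and 18 passed under every alternative run. The replicate block, fitted although the numbers do not pair the libraries, gave 27, 29 and 22, and KHK in erastin-R cells lost its call under it (adjusted p = 0.0508). LDHA in erastin-R cells was under 2-fold with total counts and with quantile normalization, which left 2 in place of 3 genes at least 2-fold lower. The LDHB share difference between the resistant groups (0.362 percentage points) ranged from -0.356, without erastin-R replicate 1, to 0.887 with each library left out. By shares of counts in place of FPKM, the rise of the LDHB share against vehicle was 1.17 and 1.35 percentage points in place of 2.34 and 2.7.

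Log2 fold changes changed sign in 17 cases, none of them past the test in the values given above. With no filter SLC2A1 in erastin-R cells was -0.0047. After quantile normalization, ENO1 and DLAT were 0.0071 and 0.030 between the resistant groups, and MPC2 was 0.011 when only these groups were fitted. With each library left out, SLC2A1 in erastin-R cells ranged from -0.035 to 0.071, PFKP in RSL3-R cells from -0.046 to 0.055, and LDHB in erastin-R cells from -0.20 to 0.15. Between the resistant groups ALDOA ranged from -0.19 to 0.023, LDHB from -0.35 to 0.0072 and MPC2 from -0.068 to 0.047. The cause was not tested.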
